A study of Homo sapiens with 15 samples.

Results

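Collagen and laminin chain genes were described in A549 cells, a human lung adenocarcinoma line used as a model of the alveolar epithelium, after high oxygen and all-trans retinoic acid (ATRA), the vitamin A metabolite that binds the nuclear retinoic acid receptors. Members were taken by symbol: COL, a number, A and a number for collagen alpha chains, and LAMA, LAMB or LAMC with a number for laminin chains. The rule was chosen with earlier results of these data known. This rule gave 56 of the 43388 genes listed in the count files, 44 collagen genes and 12 laminin genes. All libraries came from A549 cells of the WT genotype cultured at 5% CO2, and the exposure lasted 72 hours in each. By the labels, cells received ATRA at 1e-05 mM or ethanol as vehicle for 24 hours and were then kept in hyperoxia (95% oxygen) or normoxia (21% oxygen). The groups were hyperoxia with vehicle (2 libraries), normoxia with vehicle (2), hyperoxia with ATRA (3), normoxia with ATRA (3), and hyperoxia and normoxia libraries whose own labels name neither vehicle nor ATRA (2 each). The labels do not say whether libraries of a group came from separate cultures, so the p-values measure the spread between these libraries, which may be technical, and all of them come from a single tumour line. A further library was left out of every comparison because its title and its treatment label disagree.

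Collagens are triple helices of 3 alpha chains, and each chain is the product of its own gene. Fibril-forming collagens build the interstitial matrix, whereas type IV collagen forms the sheet-like network of basement membranes, where its 6 genes lie as 3 pairs that share a bidirectional promoter. Laminins are cross-shaped trimers of 1 alpha, 1 beta and 1 gamma chain that polymerise on the cell surface and start basement membrane assembly. Laminins with the alpha 3 chain anchor epithelial cells through hemidesmosomes, and laminins with the alpha 5 chain are abundant in the basement membrane of the alveolus.

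The 14 assigned libraries held 2642377 to 5605072 counts on genes, so that 3 counts, the limit that a count of 0 allows, corresponded to between 0.535 and 1.14 CPM, the count scaled to the size of its library. These limits cover counting error only. Hyperoxia replicate 1 without a named vehicle stood apart, with counts on 12657 genes against 16465 to 20108 in the other 13, and hyperoxia ATRA replicate 1 had 855 genes with 1 to 3 counts against 1593 to 3657 in the remaining 12. The titles number the libraries in a running order that falls into 3 sets, each with at most 1 library of a group, and the first set holds no vehicle library. These sets are an inference from the numbers and are not stated to be a batch. Of the 5 epithelial markers examined, keratin 8 and keratin 18 were abundant but EPCAM reached only 4.8 CPM at most. The summed level of the 5 lay between 1685 and 4203 CPM in the 7 hyperoxia libraries and between 5743 and 9562 CPM in the 7 normoxia libraries. The 7 fibroblast markers summed to 0 to 6.84 CPM in hyperoxia and 7.49 to 18.2 CPM in normoxia, without overlap and with DCN and FAP at 0 in all 14 libraries. Most of the normoxia sums was THY1, at 7.18 to 17.4 CPM, while the other fibroblast markers reached at most 1.53 CPM in any library. The 3 smooth muscle markers summed to 24.6 to 83.8 CPM in hyperoxia and 14.2 to 38.0 CPM in normoxia, with DES at 0. The 3 endothelial markers were at 0 in hyperoxia and reached at most 6.26 CPM in normoxia, with VWF at 0 in all 14, and the leukocyte marker CD3E was at 0 as well. The sum of the 3 leukocyte markers, nearly all of it CD68, which other cell types also express, ran from 60.4 to 103 CPM in hyperoxia and from 17.4 to 32.8 CPM in normoxia. In RNA from a whole culture, fewer cells that express a gene and less of its RNA per cell cannot be told apart, and the part of these markers in the results below was not tested.

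The chains of laminin-511 had the highest mean levels per length. A gene was tested where it passed the filter of edgeR, which asks for about 10 counts in as many libraries as the smallest group holds, and 30 of the 56 members did in the fit of the 10 vehicle and ATRA libraries (21 collagen and 9 laminin genes) and 31 did in the fit of all 14. Over those 10 libraries, the highest mean levels per length were 64.2 CPM per kb of transcript for LAMB1, 61.1 for LAMA5 and 52.0 for LAMC1, the 3 chains of laminin-511. These were followed by COL5A2, a minor fibrillar chain, at 45.4 CPM per kb and by COL18A1, the precursor of endostatin, at 33.7. LAMB2, COL4A2, LAMA3, COL7A1 and LAMB3 completed the first 10 with 23.9, 21.0, 14.1, 13.6 and 9.41 CPM per kb. The ranges over libraries of LAMB1 (51.9 to 73.7) and LAMA5 (45.6 to 68.4) overlapped widely, as did those of LAMC1 (42.6 to 61.7) and COL5A2 (35.6 to 58.0), so the order among these 4 genes does not hold beyond their spread.

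**Figure D1:**
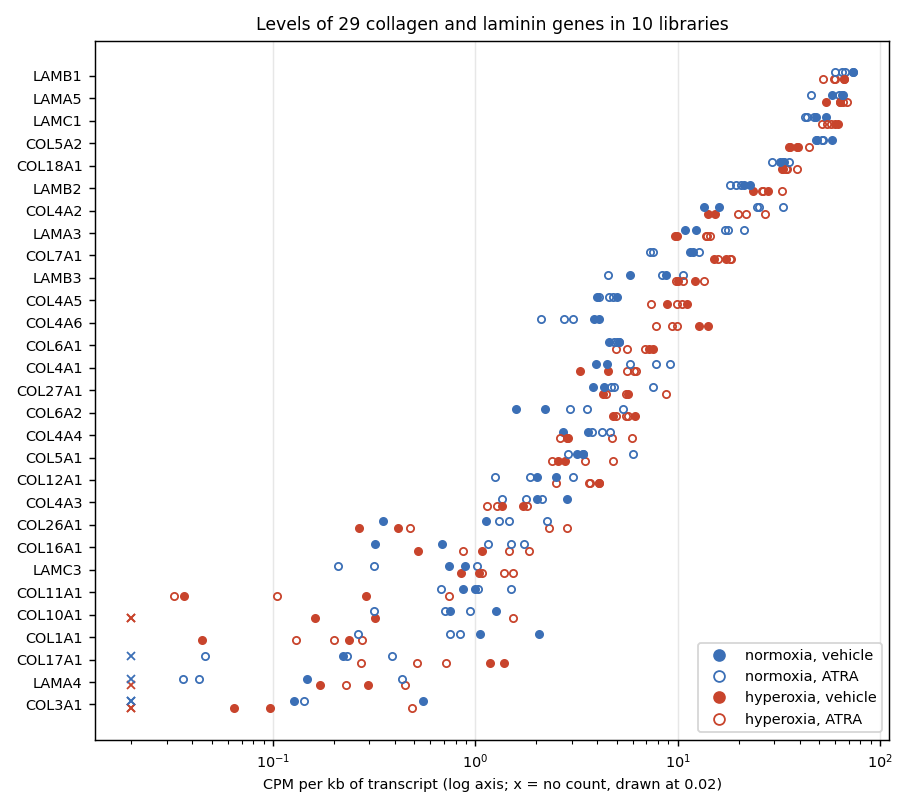
Level of 29 of the 30 tested collagen and laminin genes in each vehicle and ATRA library, in CPM per kb of transcript on a log axis, with hyperoxia in red, normoxia in blue, vehicle filled and ATRA open. LAMB1, LAMA5 and LAMC1 lie at the top with means of 64.2, 61.1 and 52.0, and COL3A1 is lowest with a mean of 0.147.

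Of the 26 members below the filter, 4 had no count in any of the 14 libraries (COL6A5, COL15A1, COL19A1 and COL25A1), 7 never exceeded 3 counts in a library, and 15 exceeded 3 counts in at least 1. The chains of a trimer were not present together in every case. COL1A2, the partner of COL1A1 in type I collagen, had 1 count in all 14 libraries together, against 196 for COL1A1, and COL3A1 had 37. COL6A3, which completes the usual type VI trimer, had 8 counts, against 1261 for COL6A1 and 746 for COL6A2. LAMB4 had 94 counts, of which 73 were in hyperoxia replicate 1 without a named vehicle, so its signal rested on the library that stood apart. By class, all 6 type IV genes passed the filter, as did 6 of 11 fibrillar genes, 2 of 5 type VI genes, 2 of 10 fibril-associated (FACIT) genes and 1 of 4 transmembrane genes.

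To find which chains responded to oxygen, hyperoxia was compared with normoxia within the vehicle, ATRA and no-vehicle-named libraries, which share no library. Calls are genes with a Benjamini-Hochberg adjusted p under 0.05 over all genes tested by edgeR's quasi-likelihood test. With vehicle, 4 of 21 collagen genes rose and 2 fell, against 8.68% and 8.81% of all 14957 genes tested, and no laminin gene passed (1 of 9 at an unadjusted p under 0.05, and 0 by DESeq2). With ATRA, 3 collagen and 2 laminin genes rose and 1 of each fell, against 11.4% and 11.3% of all genes. Without a named vehicle, 6 of 22 collagen and 3 of 9 laminin genes rose and 1 collagen gene fell, against 7.57% and 7.58% of 15339 genes. These last calls rest on the spread pooled over all 14 libraries, since a fit of the 4 libraries alone called 58 genes and no member. The median log2 fold change of the tested collagen genes was 0.00, 0.13 and 0.35 in the 3 sets and that of the laminin genes 0.24, 0.47 and 0.71, beside 0.01, 0.01 and -0.10 for all genes. Of the 31 members tested in all 14 libraries, 4 had every one of the 7 hyperoxia libraries above every one of the 7 normoxia libraries, namely COL4A5, COL4A6, COL7A1 and LAMB2, and 0 had the reverse, against 6.34% and 7.31% of all genes.

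**Figure D2:**
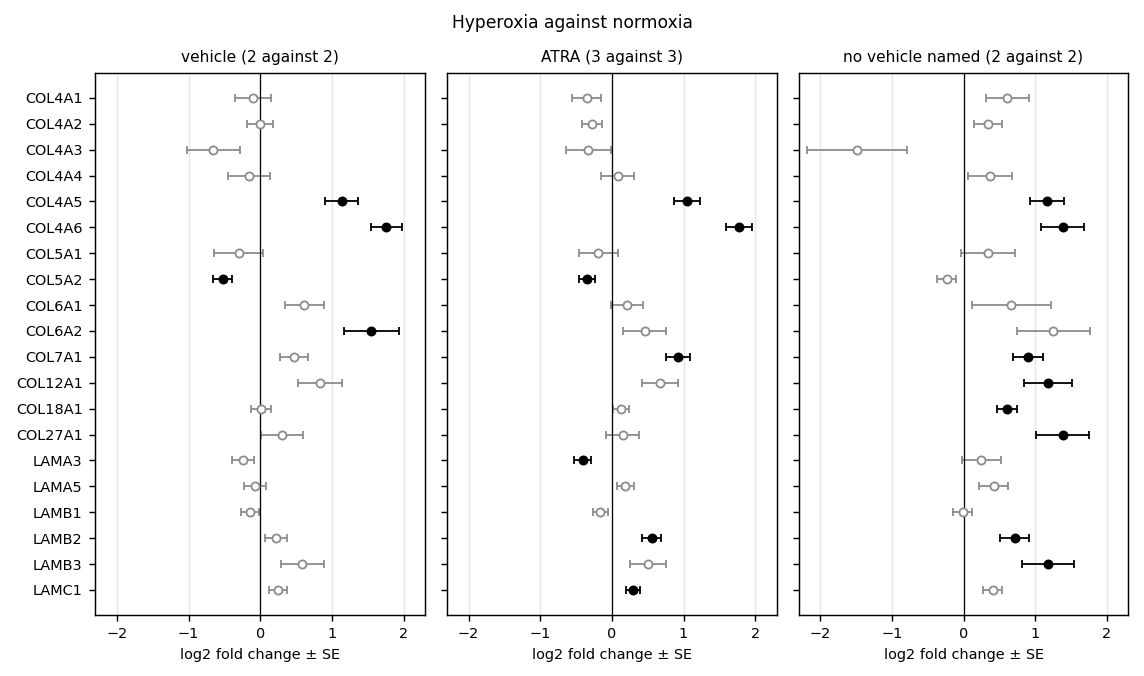
Log2 fold change of hyperoxia against normoxia with its standard error for 20 members with a mean of at least 10 CPM, in vehicle, ATRA and no-vehicle-named libraries, with filled black points for an adjusted p under 0.05. COL4A5 and COL4A6 are filled and above 1 in each panel, whereas COL4A1, COL4A2, COL4A3 and COL4A4 are open in each.

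COL4A5 and COL4A6 rose in hyperoxia in every set of libraries. They encode the alpha 5 and alpha 6 chains of type IV collagen, which join in epithelial basement membranes, and they lie back to back on the X chromosome, COL4A5 on the plus strand at chrX:108439838-108697545 and COL4A6 on the minus strand at chrX:108155614-108439458 (RefSeq, GRCh38.p14), with 379 bases between their outermost starts. Because they moved together, the windows from 250 bases before to 50 bases after each start are shown, with CCAAT and its reverse complement ATTGG in capitals. The COL4A5 window is chrX:108439588-108439887 on the plus strand and the COL4A6 window of the outermost start is chrX:108439409-108439708 on the minus strand, and they share 121 bases.
COL4A5: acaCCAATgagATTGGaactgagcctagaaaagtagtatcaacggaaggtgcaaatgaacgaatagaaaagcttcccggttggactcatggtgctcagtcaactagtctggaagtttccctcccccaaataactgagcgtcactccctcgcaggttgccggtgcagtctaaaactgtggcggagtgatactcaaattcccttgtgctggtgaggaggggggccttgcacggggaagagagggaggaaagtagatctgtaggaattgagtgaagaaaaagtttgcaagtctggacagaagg
COL4A6: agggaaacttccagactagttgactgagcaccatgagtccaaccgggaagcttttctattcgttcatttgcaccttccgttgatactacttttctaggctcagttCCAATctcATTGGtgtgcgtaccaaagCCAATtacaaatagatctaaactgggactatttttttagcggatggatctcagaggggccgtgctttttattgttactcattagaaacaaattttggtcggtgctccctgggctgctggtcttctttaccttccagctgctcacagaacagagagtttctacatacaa
CCAAT occurred 2 times in the first and 3 times in the second, counting both strands. The 2 matches of COL4A5 lie in the shared bases and are 2 of the 3 of COL4A6, read from the other strand. A second COL4A6 window, at an inner start, had 0 matches. CCAAT was present in 34.6% of the 35116 RefSeq windows of this length, so its presence is common. These are matches of letters only.

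The level of COL4A5 was 26.1 and 32.6 CPM in the normoxia vehicle libraries and 57.8 and 72.2 CPM in the hyperoxia vehicle libraries. With ATRA it was 29.996, 31.2 and 26.5 CPM in normoxia and 64.5, 68.9 and 48.4 CPM in hyperoxia, and without a named vehicle 29.8 and 25.7 against 57.7 and 67.1 CPM. No hyperoxia library overlapped a normoxia library. The rise was 2.20-fold with vehicle (log2 1.14 ± 0.22 SE, edgeR adjusted p = 0.001), 2.07-fold with ATRA (log2 1.05 ± 0.19, edgeR adjusted p = 0.00029) and 2.24-fold without a named vehicle (log2 1.16 ± 0.24, edgeR adjusted p = 0.0036). COL4A6 was at 25.7 and 27.3 CPM in normoxia with vehicle and at 94.4 and 85.6 CPM in hyperoxia. With ATRA it was at 18.3, 14.04 and 20.3 CPM against 52.5, 62.8 and 66.3 CPM, and without a named vehicle at 31.4 and 19.7 against 47.1 and 87.6 CPM. Here too the 7 hyperoxia libraries lay above the 7 normoxia libraries, by 3.38-fold with vehicle (log2 1.76 ± 0.22, edgeR adjusted p = 4.8e-06), 3.42-fold with ATRA (log2 1.77 ± 0.19, edgeR adjusted p = 4.7e-07) and 2.61-fold without a named vehicle (log2 1.38 ± 0.30, edgeR adjusted p = 0.0054). In the last set, leaving out normoxia replicate 2 raised the adjusted p to 0.056 for COL4A5 and 0.089 for COL4A6. The oxygen effect was not shown to differ between ATRA and vehicle for either gene, with differences of -0.09 (95% interval -0.69 to 0.52) and 0.02 (-0.55 to 0.59) on the log2 scale.

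**Figure D3:**
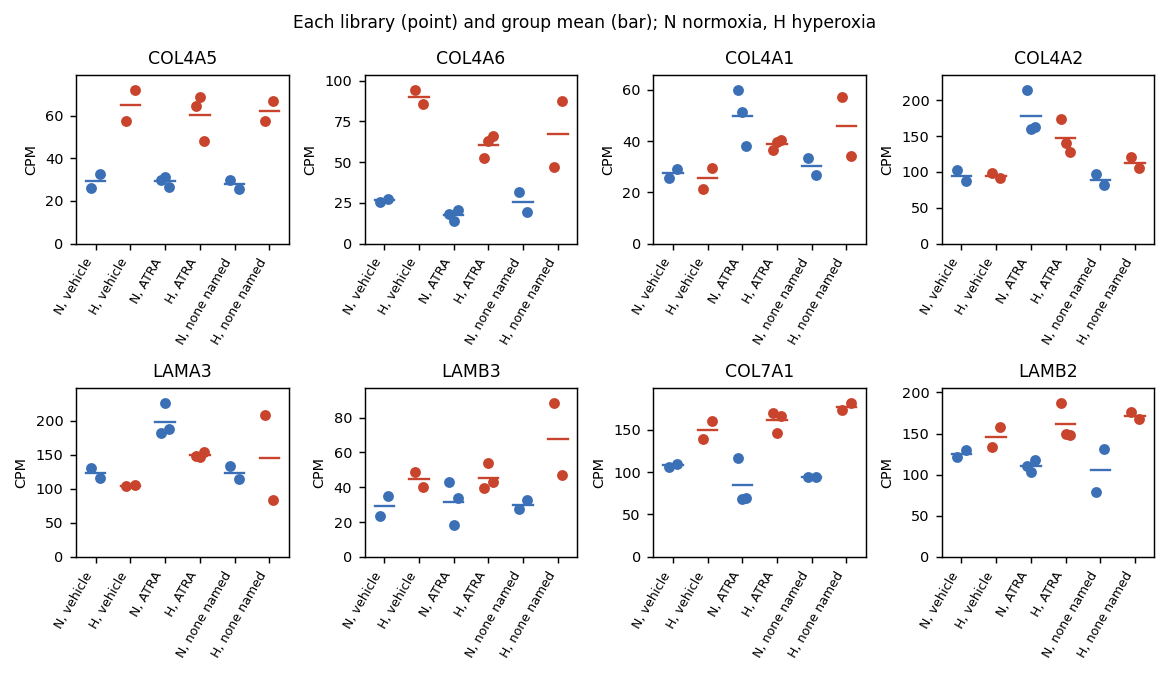
CPM of 8 members in each of the 14 assigned libraries (points) with group means (bars), normoxia in blue and hyperoxia in red, from a zero baseline. COL4A5 runs from 48.4 to 72.2 CPM in hyperoxia and from 25.7 to 32.6 CPM in normoxia without overlap, and COL4A2 is above 127 CPM only in the ATRA libraries.

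The other 4 type IV genes were not called for oxygen in any set. COL4A1 and COL4A2, which encode the ubiquitous network of 2 alpha 1 chains and 1 alpha 2 chain, had log2 differences with vehicle of -0.10 ± 0.25 and 0.00 ± 0.18. With ATRA these were -0.35 ± 0.20 and -0.28 ± 0.14, and without a named vehicle 0.61 ± 0.30 and 0.34 ± 0.19. COL4A3 and COL4A4, the partners of COL4A5 in the alveolar and glomerular basement membrane, had differences with vehicle of -0.65 ± 0.37 and -0.16 ± 0.29. With ATRA these were -0.33 ± 0.31 and 0.08 ± 0.23, and without a named vehicle -1.49 ± 0.70 and 0.37 ± 0.31. The last COL4A3 value includes the library that stood apart, with 5 counts. COL4A4 counts are uncertain, since the gene overlaps RHBDD1 on the other strand, which had 83.4% as many counts, and whether the counting used strand is not given in the sources used here. The ratio of COL4A6 to COL4A5 counts within a library ranged from 0.45 to 1.05 in normoxia and from 0.813 to 1.63 in hyperoxia. These ranges over all libraries overlapped. With vehicle the ratio ran from 0.837 to 0.987 in normoxia and from 1.19 to 1.63 in hyperoxia. With ATRA it ran from 0.45 to 0.765 and from 0.813 to 1.37, again without overlap. Without a named vehicle the ranges, 0.766 to 1.05 and 0.817 to 1.31, overlapped. The ratio was not tested.

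Among the fibrillar collagens, COL5A2 and COL1A1 fell in hyperoxia. COL5A2, whose chain with COL5A1 sets the diameter of collagen fibrils, was at 335 and 396 CPM in normoxia with vehicle and 266 and 243 CPM in hyperoxia. With ATRA it was at 358, 330 and 353 against 303, 246 and 268 CPM, so that both sets were separated. It fell by 0.52 ± 0.14 on the log2 scale with vehicle (edgeR adjusted p = 0.0092) and by 0.35 ± 0.11 with ATRA (edgeR adjusted p = 0.028). The call was lost with vehicle without hyperoxia replicate 2 (edgeR adjusted p = 0.11) or normoxia replicate 2 (0.15), and with ATRA without normoxia replicate 1 (0.085), hyperoxia replicate 2 (0.086) or hyperoxia replicate 3 (0.062). Without a named vehicle the difference was -0.23 ± 0.13, which did not pass.

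COL1A1, the main chain of type I collagen, was low everywhere. It had 35 and 35 counts in normoxia with vehicle against 1 and 8 in hyperoxia, and 38 and 22 against 0 and 0 without a named vehicle. With ATRA the counts were 17, 5 and 19 in normoxia and 9, 2 and 5 in hyperoxia, which overlapped. It fell by 3.30 ± 0.97 on the log2 scale with vehicle (edgeR adjusted p = 0.02), a call that held only without hyperoxia replicate 2 among the 4 fits that left out a library (edgeR adjusted p = 0.21 without hyperoxia replicate 1, 0.22 without normoxia replicate 1 and 0.051 without normoxia replicate 2). Without a named vehicle it was at least 8.05-fold lower in hyperoxia, taking 3 counts per library as the floor (edgeR adjusted p = 0.0057). With COL1A2 at 1 count in all, these reads do not stand for both chains of type I collagen. The summed fibroblast markers, mostly THY1, were also lower in hyperoxia, as given above, and their part in the lower COL1A1 and COL5A2 was not tested. THY1, the single marker of these that passed the filter, was called lower in hyperoxia with ATRA but not with vehicle or without a named vehicle.

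COL7A1 and COL6A2 rose in part of the sets. COL7A1, the anchoring fibril collagen that ties the epithelial basement membrane to the stroma, was at 106 and 110 CPM in normoxia and 140 and 160 CPM in hyperoxia with vehicle, which did not pass the test (log2 0.47 ± 0.20, edgeR adjusted p = 0.11). With ATRA it was at 117, 67.7 and 69.7 against 170, 146 and 167 CPM and rose 1.90-fold (log2 0.92 ± 0.16, edgeR adjusted p = 0.00029). Without a named vehicle it was at 94.8 and 94.8 against 173 and 181 CPM and rose 1.87-fold (edgeR adjusted p = 0.0088; 0.085 and 0.064 without normoxia replicate 1 or 2). All 7 hyperoxia libraries were above all 7 normoxia libraries, and the difference of the oxygen effect between ATRA and vehicle was 0.45 ± 0.26 (edgeR adjusted p = 0.79). COL6A2, a chain of the type VI beaded filaments, had 22 and 31 counts in normoxia and 62 and 120 in hyperoxia with vehicle and rose 2.93-fold (log2 1.55 ± 0.38, edgeR adjusted p = 0.0062; 0.10 without hyperoxia replicate 2 and 0.13 without normoxia replicate 2). COL6A2 did not pass with ATRA (log2 0.46 ± 0.30) or without a named vehicle (log2 1.25 ± 0.51, edgeR adjusted p = 0.11). Its partner COL6A1 did not pass in any set. Without a named vehicle, COL6A1 had 29 counts in hyperoxia replicate 1, the library that stood apart, and 120 in replicate 2. Its log2 value in that set was 1.49 without hyperoxia replicate 1 and -1.31 without hyperoxia replicate 2.

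COL17A1, the transmembrane collagen of hemidesmosomes, had 0 and 7 counts in normoxia and 25 and 44 in hyperoxia with vehicle, so that its rise (log2 3.25 ± 1.098, edgeR adjusted p = 0.045) rested on few reads. Among the 4 fits that left out a library, that call was kept only without normoxia replicate 2. The log2 values were 3.37 and 3.14 without hyperoxia replicate 1 or 2, and 2.48 and 7.83 without normoxia replicate 1 or 2. Of all 13 alternatives 7 kept the call, and it was lost with the library number set as a block (edgeR adjusted p = 0.056). A further 3 collagens were called without a named vehicle and not in the other sets, and whether the sets differ was not tested. COL12A1, a fibril-associated collagen, was at 22.6 and 21.8 CPM in normoxia and 51.1 and 49.8 in hyperoxia (log2 1.18 ± 0.34, edgeR adjusted p = 0.027; 0.16 and 0.15 without normoxia replicate 1 or 2, and 0.085 with the library number set as a block). COL12A1 differed in the same direction with vehicle (log2 0.84 ± 0.30) and with ATRA (log2 0.67 ± 0.25), just short of a call (edgeR adjusted p = 0.063 in each). The vehicle and ATRA values were 0.30 ± 0.29 and 0.15 ± 0.24 for COL27A1, and 0.01 ± 0.14 and 0.13 ± 0.11 for COL18A1. COL27A1, a fibrillar collagen of cartilage, was at 34.5 and 31.9 against 119 and 53.4 CPM (log2 1.38 ± 0.37, edgeR adjusted p = 0.02). Its value without hyperoxia replicate 1, the library that stood apart, was 0.68 (edgeR adjusted p = 0.25), and the call was also lost without normoxia replicate 1 or 2 (0.12 each) and with the library number set as a block (0.059). COL18A1 was at 135 and 149 against 232 and 199 CPM (log2 0.60 ± 0.14, edgeR adjusted p = 0.0087; 0.085 without hyperoxia replicate 1 and 0.13 without normoxia replicate 1), and it overlaps SLC19A1 on the other strand, which had 59.1% as many counts.

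Among the laminin chains, LAMB2 was higher in all 7 hyperoxia libraries. LAMB2 encodes the beta 2 chain that replaces beta 1 in laminin-521. It was at 121 and 130 CPM in normoxia and 134 and 159 CPM in hyperoxia with vehicle (log2 0.22 ± 0.15, edgeR adjusted p = 0.40). With ATRA it was at 110, 104 and 117 against 187, 150 and 149 CPM and rose 1.47-fold (log2 0.55 ± 0.13, edgeR adjusted p = 0.003). Without a named vehicle it was at 79.4 and 131 against 176 and 167 CPM (log2 0.71 ± 0.20, edgeR adjusted p = 0.024; 0.058 without hyperoxia replicate 1 and 0.36 without normoxia replicate 1). LAMB1, the alternative beta chain, was not called in any set, with log2 differences of -0.15 ± 0.13, -0.16 ± 0.10 and -0.01 ± 0.13. Within each library, LAMB1 had 1.81 to 2.79 counts per LAMB2 count in the 7 hyperoxia libraries and 2.87 to 5.65 in the 7 normoxia libraries, ranges that did not overlap. This ratio was computed after the values were seen and was not tested. LAMC1, the gamma 1 chain common to most laminins, rose 1.23-fold with ATRA (log2 0.29 ± 0.10, edgeR adjusted p = 0.043), with 375, 344 and 338 CPM in normoxia and 451, 411 and 431 in hyperoxia. Its adjusted p was between 0.074 and 0.15 in 5 of the 6 fits that left out 1 library, all but that without normoxia ATRA replicate 1. LAMC1 differed in the same direction with vehicle (log2 0.25 ± 0.12, edgeR adjusted p = 0.19) and without a named vehicle (log2 0.41 ± 0.14, edgeR adjusted p = 0.054). Neither passed. LAMA5 was not called in any set.

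**Figure D4:**
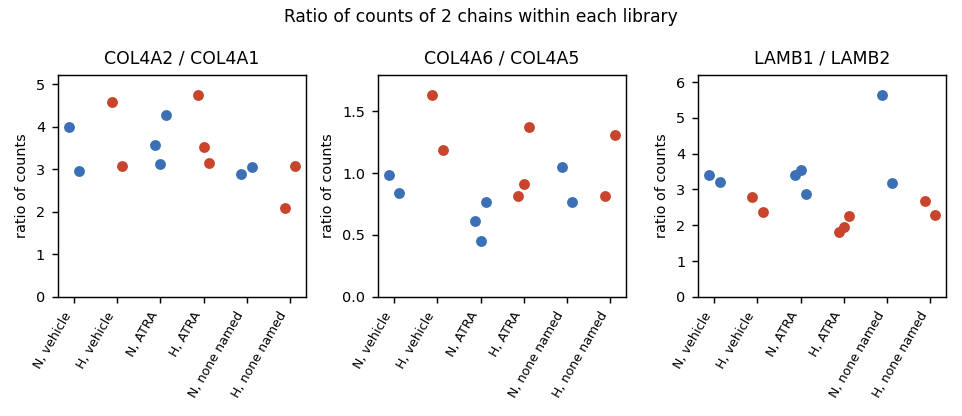
Ratio of the counts of 2 chains within each of the 14 assigned libraries, normoxia in blue and hyperoxia in red. The LAMB1 to LAMB2 ratio is at most 2.79 in hyperoxia and at least 2.87 in normoxia.

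LAMA3 and LAMB3, an alpha and a beta chain of epithelial laminin, were called in different sets, and the difference between them was not tested. LAMA3 was at 131 and 116 CPM in normoxia and 103 and 105 in hyperoxia with vehicle, and at 182, 226 and 188 against 149, 147 and 153 CPM with ATRA. Without a named vehicle LAMA3 was at 133 and 114 against 208 and 82.7 CPM, with 208 in the library that stood apart. Its log2 difference there was 0.25 ± 0.27, opposite in sign to the other sets, and did not pass. It fell with ATRA by 0.41 ± 0.12 on the log2 scale (edgeR adjusted p = 0.016; 0.072 without normoxia replicate 2) and did not pass with vehicle (-0.24 ± 0.15). LAMB3 had log2 differences of 0.58 ± 0.30 with vehicle and 0.50 ± 0.25 with ATRA, which did not pass (edgeR adjusted p = 0.21 and 0.16). LAMB3 was called higher without a named vehicle, at 27.7 and 32.4 against 88.3 and 47.2 CPM (log2 1.18 ± 0.36, edgeR adjusted p = 0.039). Its value was 0.65 without hyperoxia replicate 1, the library that stood apart (edgeR adjusted p = 0.30), and the call was also lost without normoxia replicate 1 (0.26) or 2 (0.13) and with the library number set as a block (0.12).

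To ask what ATRA changed, ATRA was compared with vehicle at each oxygen level. Each of these comparisons shares its vehicle libraries with the vehicle oxygen comparison and its ATRA libraries with the ATRA oxygen comparison. Those values are therefore not independent of each other. In hyperoxia COL4A2 and LAMA3 rose, beside 1.52% of all genes higher and 0.695% lower. In normoxia COL4A2 and LAMA3 rose, beside 0.816% higher and 0.435% lower. The 2 tests share no library. The median log2 fold change of collagen genes was 0.33 in hyperoxia and 0.05 in normoxia and that of laminin genes 0.07 and -0.19, beside 0.00 for all genes in both. No member had a called difference between the 2 ATRA effects (0.14% of all genes by edgeR, and 0 members by DESeq2), while 1 of 30, COL6A2, had an unadjusted p under 0.05. The ATRA effect in hyperoxia minus that in normoxia was -0.28 on the log2 scale for COL4A2 (95% interval -0.75 to 0.20) and -0.17 for LAMA3 (-0.56 to 0.23). COL4A2 was the single member of 31 with all 6 ATRA libraries above all 8 others (0.561% of all genes), and 0 had the reverse (0.235%).

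**Figure D5:**
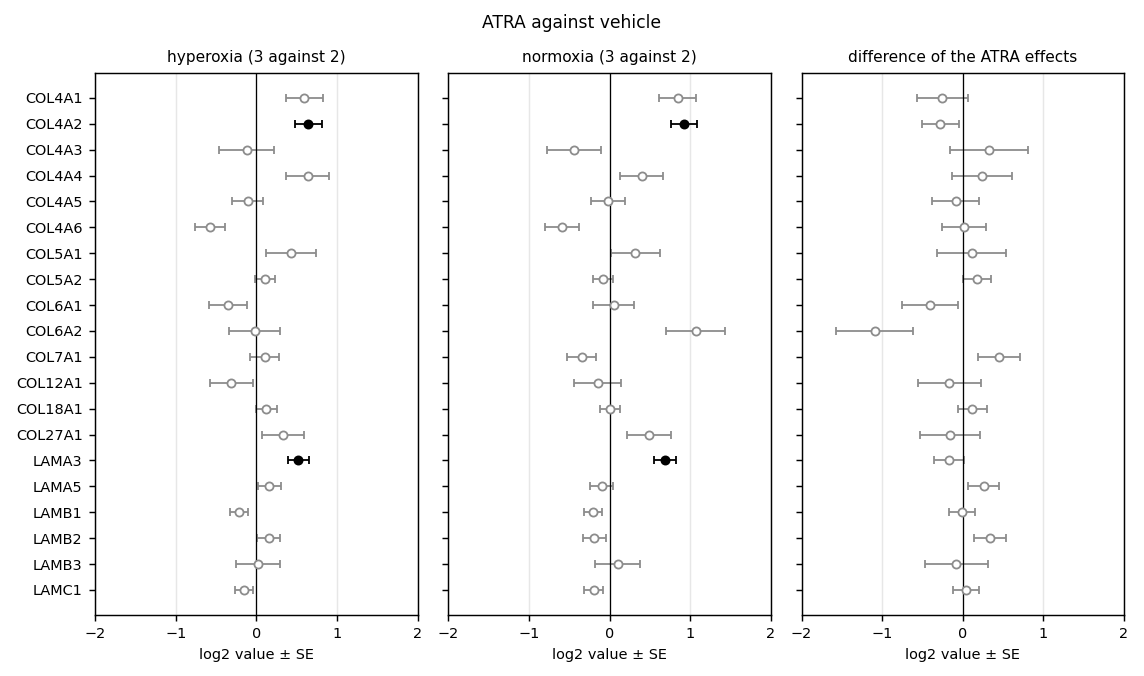
Log2 fold change of ATRA against vehicle in hyperoxia and in normoxia, and the difference between these 2 effects (hyperoxia minus normoxia), with standard errors, for 20 members with a mean of at least 10 CPM. COL4A2 and LAMA3 are the filled points, called at an adjusted p under 0.05, in both of the first panels, and no point is filled in the third.

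COL4A2 was at 103 and 86.7 CPM with vehicle and at 215, 159 and 162 CPM with ATRA in normoxia, and at 98.1 and 90.9 against 174, 140 and 128 CPM in hyperoxia. It rose 1.90-fold in normoxia (log2 0.92 ± 0.17, edgeR adjusted p = 0.0037; 0.18 without normoxia vehicle replicate 2) and 1.56-fold in hyperoxia (log2 0.64 ± 0.16, edgeR adjusted p = 0.038). In hyperoxia the call held only without ATRA replicate 3 among the 5 fits that left out a library, with an adjusted p of 0.14 and 0.071 without ATRA replicate 1 or 2 and 0.29 and 0.41 without vehicle replicate 1 or 2. ATRA replicate 1 was the highest at each oxygen level, and its set of library numbers holds no vehicle library. With the library number set as a block, the hyperoxia value was 0.50 and not called (edgeR adjusted p = 0.078), and the normoxia value was 0.78 (edgeR adjusted p = 0.0038). COL4A1 was at 25.7 and 29.3 CPM with vehicle and at 59.99, 51.2 and 38.0 CPM with ATRA in normoxia, and at 21.5 and 29.7 against 36.6, 39.8 and 40.6 CPM in hyperoxia. These groups did not overlap either, but COL4A1 did not pass the test (log2 0.85 ± 0.23, edgeR adjusted p = 0.086, and 0.60 ± 0.23, edgeR adjusted p = 0.23). COL4A2 had 2.10 to 4.75 counts per COL4A1 count across the 14 libraries. COL4A6 differed in the other direction, with 52.5, 62.8 and 66.3 CPM with ATRA against 94.4 and 85.6 with vehicle in hyperoxia. In normoxia it was at 18.3, 14.04 and 20.3 against 25.7 and 27.3 CPM. These groups did not overlap, but COL4A6 did not pass (log2 -0.57 ± 0.18, edgeR adjusted p = 0.13, and -0.59 ± 0.21, edgeR adjusted p = 0.30). COL4A5 did not pass either (log2 -0.11 ± 0.20 and -0.02 ± 0.21).

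COL4A1 and COL4A2 are the second pair that shares a promoter, with 126 bases between COL4A1 (chr13:110148963-110307157, minus strand) and COL4A2 (chr13:110307284-110513209, plus strand). The COL4A2 window, chr13:110307034-110307333 on the plus strand of GRCh38.p14, shares 226 bases with that of COL4A1 and is shown with its single CCAAT in capitals.
COL4A2: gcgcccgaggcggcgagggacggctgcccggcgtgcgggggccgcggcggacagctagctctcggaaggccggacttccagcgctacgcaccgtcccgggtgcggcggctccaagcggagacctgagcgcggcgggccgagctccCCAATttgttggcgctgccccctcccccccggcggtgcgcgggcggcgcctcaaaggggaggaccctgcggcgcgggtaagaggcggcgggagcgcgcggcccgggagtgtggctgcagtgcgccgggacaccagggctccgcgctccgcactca
The half-site of retinoic acid receptors, AGGTCA or its reverse complement TGACCT, was present in a window of 16.53% of the 27305 genes with 1 or more windows and of 1 of the 24 such tested members, COL7A1, which was not called for ATRA. The GC box GGGCGG or CCGCCC was found in 18 of these 24, COL4A1 and COL4A2 with their overlapping windows among them, and in 48.3% of all such genes. The 24 members had passed the count filter, whereas the genes with windows were not filtered. These shares are therefore of unlike sets, and the difference between them was not tested.

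LAMA3 rose with ATRA against vehicle at both oxygen levels. With the no-vehicle-named libraries pooled with vehicle, the log2 values were 0.25 in hyperoxia and 0.69 in normoxia, neither called (edgeR adjusted p = 0.66 and 0.21). In the pooled fit without the library that stood apart, chosen after the data were seen, they were 0.62 and 0.68, both called (edgeR adjusted p = 0.0051 and 0.00061). LAMA3 was at 131 and 116 CPM with vehicle and at 182, 226 and 188 CPM with ATRA in normoxia and rose 1.61-fold (log2 0.69 ± 0.13, edgeR adjusted p = 0.0079; 0.079 and 0.26 without vehicle replicate 1 or 2). In hyperoxia it was at 103 and 105 against 149, 147 and 153 CPM and rose 1.43-fold (log2 0.52 ± 0.13, edgeR adjusted p = 0.044). That call was lost in each of the 5 fits that left out 1 library, with an adjusted p of 0.48 and 0.35 without vehicle replicate 1 or 2 and of 0.072, 0.085 and 0.075 without ATRA replicate 1, 2 or 3.

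LAMB3 did not pass for ATRA, with log2 differences of 0.02 ± 0.27 in hyperoxia and 0.10 ± 0.28 in normoxia, whose 95% intervals ran from -0.54 to 0.58 and from -0.49 to 0.68. The LAMA3 window (chr18:23872770-23873069, plus strand), at the start of a shorter transcript inside the gene, and the window of the innermost LAMB3 start (chr1:209651325-209651624, minus strand) are shown because they are the 2 tested members whose windows hold the AP-1 motif TGACTCA or its reverse complement TGAGTCA, in capitals, which 4.95% of all windows do and 6.05% of all genes with a window do in at least 1.
LAMA3: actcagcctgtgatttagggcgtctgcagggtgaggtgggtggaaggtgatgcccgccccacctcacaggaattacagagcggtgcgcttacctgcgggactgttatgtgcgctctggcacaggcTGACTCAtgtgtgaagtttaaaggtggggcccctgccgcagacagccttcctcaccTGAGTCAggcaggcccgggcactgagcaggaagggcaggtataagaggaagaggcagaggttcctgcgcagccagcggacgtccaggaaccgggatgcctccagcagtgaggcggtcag
LAMB3: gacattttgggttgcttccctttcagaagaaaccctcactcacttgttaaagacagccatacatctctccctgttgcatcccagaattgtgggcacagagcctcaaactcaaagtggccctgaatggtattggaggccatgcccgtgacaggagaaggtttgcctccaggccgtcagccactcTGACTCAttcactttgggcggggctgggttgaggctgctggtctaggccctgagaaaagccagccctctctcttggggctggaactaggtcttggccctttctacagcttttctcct
The LAMA3 window has 2 matches and the LAMB3 window 1. The 2 other LAMB3 windows have none.

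Genes that work with these chains were counted in 4 lists, again against the percentages of all genes given above. The genes named from each list were picked for the smallest p in these data and are not typical of it. Of the 9 tested of 13 basement membrane partners, 2 rose and 1 fell in hyperoxia with vehicle. PXDN, the peroxidasin that cross-links type IV collagen, was at 3.8 and 3.7 CPM in normoxia and 21.5 and 12.7 in hyperoxia (log2 2.16 ± 0.46, edgeR adjusted p = 0.0018). HSPG2, which encodes the proteoglycan perlecan, rose less (log2 0.56 ± 0.16, edgeR adjusted p = 0.016), and FBLN1, the linker fibulin-1, fell by 1.75 ± 0.31 on the log2 scale (edgeR adjusted p = 0.00028). With ATRA in hyperoxia NID2, the linker nidogen 2, had a log2 difference of -1.003 ± 0.35 (edgeR adjusted p = 0.17). Of the 15 tested of 16 laminin and collagen receptors, 3 rose and 5 fell in hyperoxia with vehicle and 3 rose with ATRA in hyperoxia. ITGA2, the collagen-binding integrin alpha 2, rose by 2.13 ± 0.14 on the log2 scale in hyperoxia (edgeR adjusted p = 1.8e-09). ITGB4, the beta chain of the hemidesmosomal laminin receptor, fell by 1.02 ± 0.18 in hyperoxia with vehicle (edgeR adjusted p = 0.00027), had an oxygen difference of 0.37 ± 0.14 with ATRA (edgeR adjusted p = 0.068), and rose by 1.20 ± 0.17 with ATRA in hyperoxia (edgeR adjusted p = 0.00019).

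Of the 17 tested of 24 collagen folding and processing genes, 2 rose and 3 fell in hyperoxia with vehicle. PLOD2, a lysyl hydroxylase of collagen telopeptides, was at 153 and 169 CPM in normoxia and 692 and 630 in hyperoxia (log2 2.03 ± 0.13, edgeR adjusted p = 1.2e-09). With ATRA in hyperoxia PLOD2 fell by 0.87 ± 0.11 (edgeR adjusted p = 9.7e-05) while LOXL2, a lysyl oxidase that cross-links type IV collagen, rose by 0.82 ± 0.14 (edgeR adjusted p = 0.0014). PLOD1, the lysyl hydroxylase of the helix, fell by 0.88 ± 0.19 in hyperoxia (edgeR adjusted p = 0.0017). Of the 12 tested of 15 other matrix glycoproteins, 6 rose and 2 fell in hyperoxia with vehicle, among them FBN2 (fibrillin 2), which rose by 1.54 ± 0.20 (edgeR adjusted p = 7.2e-06). NTN1, the laminin-related netrin 1, was at 0.0 and 0.4 CPM in normoxia and 9.5 and 10.4 in hyperoxia with vehicle. With ATRA in hyperoxia, TGFBI and VTN (vitronectin) rose by 1.17 ± 0.14 and 2.23 ± 0.35 on the log2 scale (edgeR adjusted p = 2.9e-05 and 0.00073).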

How the data were processed

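RNA was sequenced from stranded libraries of A549 cells, and per the labels the authors used Trimmomatic 0.38, HISAT2, HTSeq and DESeq2 with the hg38 build. The deposited values are raw counts of reads per gene and were not normalised. HTSeq summary lines (no feature, ambiguous and the like, 75.2 to 78.4% of the listed total in the assigned libraries) were left out of library sizes. Whether HTSeq counted by strand is not given in the sources used here. Members and gene lists were chosen with earlier results of these data known.

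Counts were normalised by TMM and tested with edgeR 4.0.16 (glmQLFit and glmQLFTest, R 4.3.3) after filterByExpr with a minimum count of 10 and a minimum total of 15, with Benjamini-Hochberg adjustment over all genes tested. The 10 vehicle and ATRA libraries entered 1 fit in 4 groups, while oxygen without a named vehicle was tested with all 14 assigned libraries fitted as 6 groups. CPM used the TMM factors of the 14 libraries, and levels per length used the canonical transcripts of GENCODE 44. Single values are given for members called in any comparison, for the 10 highest per kb and for fixed chain groups, and for up to 4 genes of each list. The list genes were those with the smallest p for oxygen with vehicle or for ATRA in hyperoxia, so they stand for the extremes of their lists. The values of 1 member are not reported here, although it enters the counts. DESeq2 1.42.0, other size factors, no filter, other sets of libraries, the library number set and leaving out each library were the alternatives, and 2 fits of 13 libraries were added after the data were seen. The fits were tested on simulated data. RefSeq windows and coordinates are of GRCh38.p14.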

Additional observations from a re-analysis of the deposited data

How the results depend on the processing

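Of 357 values of the 29 called results under the alternatives, 266 kept the call, 91 kept the direction without the call and 0 reversed. Fits of only the groups compared called 10 collagen and 2 laminin genes for oxygen with vehicle (6 and 0 in the reported fit), 1 laminin gene for ATRA in hyperoxia (2), and 0 collagen and 0 laminin genes for oxygen without a named vehicle (7 and 3). All 14 libraries in 6 groups gave 3 collagen genes for oxygen with vehicle, 1 laminin gene for oxygen with ATRA (3), 0 collagen and 0 laminin genes for ATRA in hyperoxia (1 and 2) and 0 laminin genes in normoxia (2). With the controls pooled, these were 4 laminin genes for oxygen with vehicle, 1 laminin gene for oxygen with ATRA, 0 collagen genes and 1 laminin gene for ATRA in hyperoxia and 0 laminin genes in normoxia. With the library number set as a block, 5 laminin genes were called for oxygen with ATRA and 0 collagen genes for ATRA in hyperoxia, and without a filter 2 collagen genes for ATRA in normoxia (1). The 2 fits of 13 libraries, without the hyperoxia library that stood apart, were chosen after seeing the data. In 6 groups they gave 1 laminin gene for ATRA in hyperoxia, and with the controls pooled 10 collagen and 4 laminin genes for oxygen with vehicle and 3 collagen genes for ATRA in normoxia.

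Leaving out 1 library gave 3 to 4 collagen genes for oxygen with vehicle, 3 to 7 collagen and 1 to 6 laminin genes with ATRA, and 2 to 13 and 1 to 6 without a named vehicle. For ATRA the ranges were 0 to 2 collagen and 0 to 1 laminin genes in hyperoxia, and 0 to 2 of each in normoxia. Over all genes, only the groups compared called 4665 genes for oxygen with vehicle against 2616, and 58 without a named vehicle against 2324. The difference between the ATRA effects called 21 genes by edgeR, 103 by DESeq2 and 91 without a filter. The causes were not tested. The titles give a running library number and no replicate number. The library number set used as a block was inferred from those numbers, is not stated to be a batch, and ended the calls of COL4A2 for ATRA in hyperoxia, COL17A1 for oxygen with vehicle, and COL12A1, COL27A1 and LAMB3 for oxygen without a named vehicle, and no other reported call. With 2 or 3 libraries a group and 2642377 to 5605072 counts on genes, members with few counts, such as COL1A1 and COL17A1, have wide errors.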

Other observations

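The library left out of every comparison had 276 counts on COL4A5 and 318 on COL4A6, which is 62.5 and 72.0 CPM when scaled to its counts on genes. On the same scale the 7 hyperoxia libraries ran from 49.7 to 74.1 for COL4A5 and from 48.1 to 93.2 for COL4A6, and the 7 normoxia libraries from 25.6 to 33.8 and from 14.2 to 30.4. In the same library COL7A1 had 866 counts, LAMB2 862, LAMA3 394 and COL1A1 2.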
